A study of Mus musculus with 12 samples.

Results

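Livers of mice housed at 29 °C were compared with livers of mice housed at 6 °C across all genes of the count table. The comparison took the 4 libraries labelled 29 °C (libraries 9 to 12) and the 4 labelled 6 °C (libraries 1 to 4), which are 8 of the 12 libraries of the series. The table counts 55421 genes, of which the low-count filter left 15006 to test. All the mice were wild type and carried tumours of E0771, a mouse mammary carcinoma cell line, placed in a mammary fat pad, and the livers are labelled day 21. Before that the animals spent a week at their temperature in climate chambers, with free food and water and equal light and dark phases. The 4 libraries at 22 °C entered the fits for their share of the spread between libraries. In the fits with a term for H2-Ea-ps, described below, they also helped to estimate that term. They are otherwise used here only for their level between the extremes. The labels name both BALB/c and C57BL/6J hosts without saying which library came from which. They also do not say that each library is a separate animal, so the p-values rest on library-to-library spread, which may be technical.

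At 29 °C a mouse is close to its thermoneutral zone, in which resting metabolism alone holds body temperature, whereas at 6 °C it burns fuel throughout the day to stay warm. The liver supplies and clears those fuels: it releases glucose, lipoproteins, ketone bodies and hormones, stores fat in droplets and breaks down amino acids.

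Total counts ran from 7615585 to 13286660 at 6 °C and from 11356193 to 19001126 at 29 °C, so that 3 counts stand for 0.158 to 0.394 CPM, the count scaled by the library total. Levels below are CPM on library sizes scaled by the trimmed mean of M-values, always in the order of libraries 1 to 4 and 9 to 12. Fold changes are log2 values of 29 °C over 6 °C with an approximate standard error (SE). It was worked back from the test, as the absolute log2 fold change divided by the square root of the F statistic. Library 1 at 6 °C held 16.3 CPM of H2-Ea-ps and library 9 at 29 °C held 10.3 CPM, and the other 6 libraries held none. H2-Ea-ps is a class II histocompatibility gene that some inbred mouse strains express and others do not. On the principal components of the 8 libraries, libraries 1 and 9 lay at 49.0 and 80.4 on the first component (38.0% of the variance) and the others lay between -54.5 and 2.23. The second component, with 24.9%, ran from 11.5 to 53.3 at 6 °C and from -46.0 to 0.03 at 29 °C. Each result was fitted without a term for the libraries holding at least 1 CPM of H2-Ea-ps and with it. Both fits were set beforehand, with earlier results of these data known. The 10 most abundant genes took 22.2% to 23.7% of the counts at 6 °C and 24.8% to 29.5% at 29 °C. Mitochondrially encoded genes took 1.46% to 5.15% at 6 °C and 1.10% to 2.93% at 29 °C. The gene Gm26917 alone took 1.66% to 5.82% and 5.27% to 8.31%. What part these shares have in the calls was not tested. Hepatocyte markers summed to 85995 to 126118 CPM at 6 °C and 74410 to 159084 CPM at 29 °C, and none of the 10 was at 0.

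Without the term, 379 genes (2.53% of those tested) had an adjusted p under 0.05 in edgeR's quasi-likelihood test. Of these, 170 (1.13%) were higher at 29 °C with a median log2 fold change of 1.14, and 209 (1.39%) were lower with a median of -0.92. The median over all genes tested was 0.00. The genes that fell held more of the RNA: their levels summed to 23319, 22492, 24064 and 27597 CPM at 6 °C and to 10067, 11000, 12002 and 12984 CPM at 29 °C. The genes that rose summed to 3882, 4505, 4343 and 3765 CPM at 6 °C and to 7875, 12436, 9459 and 13067 CPM at 29 °C. In whole liver, fewer cells of a type and less RNA per cell cannot be told apart. The 22 °C mean lay between the 2 extremes for 366 of the 379 genes (96.6%), against 39.4% of all genes tested, although a wide gap between the extremes itself makes that more likely.

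With the term the count was 1884 (12.6%), with 949 higher (6.32%) and 935 lower (6.23%), and it held all 379 genes in the same direction. The count without the term moved by more than 1.5 times when some single libraries were left out. Leaving out library 3, 4 or 11 gave 67, 47 and 71 calls, and leaving out library 9, 10 or 12 gave 211, 41 and 149. With the term, leaving out library 1, 3 or 10 gave 1244, 1253 and 1012 calls. Groups did not overlap for 367 of the 379 genes and for 1204 of the 1884, against 13.3% of all genes tested (6.56% with 29 °C above and 6.74% with it below). With the 4 libraries holding H2-Ea-ps left out (1 and 9, and 7 and 8 at 22 °C), 1504 of 15173 genes passed (9.91%), 748 higher (4.93%) and 756 lower (4.98%).

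**Figure D1:**
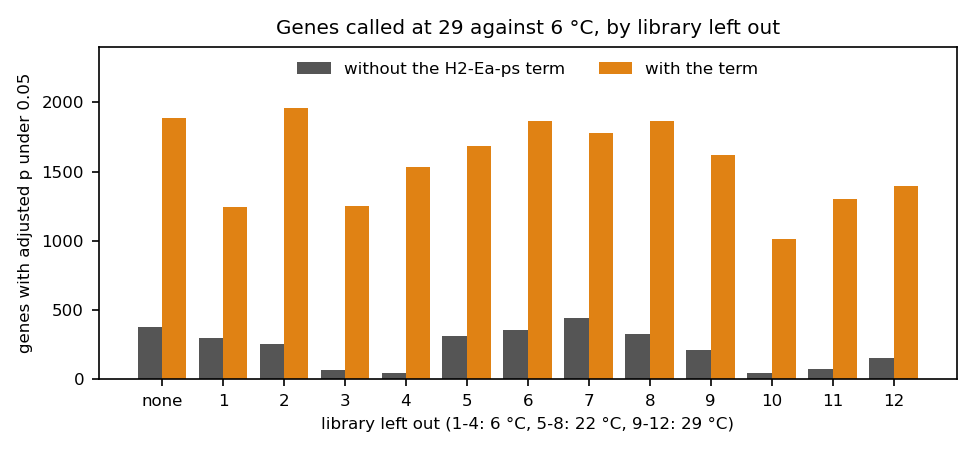
Number of genes with an adjusted p under 0.05 at 29 against 6 °C (y axis) in the full fit and in fits without 1 library (x axis), with and without the term for libraries holding H2-Ea-ps. Without the term the count lay between 41 (library 10 left out) and 439 (library 7 left out), and with the term between 1012 and 1957.

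A set of 32 genes passed the test in every one of the 8 fits that left out 1 compared library, without the term and with it. These comprised 12 that rose and 20 that fell. The genes that rose included a hormone subunit and a regulator of G-protein signalling. Inhba (chr13:16011851-16031621) encodes the beta A subunit of activin A, a secreted ligand of the TGF beta family. It read 9.15, 14, 13.8 and 6.78 CPM at 6 °C and 53.9, 51.6, 56 and 42.4 CPM at 29 °C. The lowest 29 °C library stood well above the highest 6 °C library, and the log2 fold change was 2.23 ± 0.21 (edgeR adjusted p = 0.000347). Rgs16, which shortens signalling by Gi- and Gq-coupled receptors, read 14.9, 7.84, 31.9 and 8.53 CPM and then 85.5, 313, 188 and 256 CPM, a log2 fold change of 3.73 ± 0.51 (adjusted p = 0.00839). Library 9 was the lowest of the 29 °C libraries for Rgs16, and library 3 the highest at 6 °C. Leap2, a secreted liver peptide that antagonises the ghrelin receptor, read 8.28, 9.70, 12 and 13.5 CPM at 6 °C and 22.8, 44.7, 23.8 and 29.3 CPM at 29 °C, with no overlap (1.47 ± 0.22, adjusted p = 0.00839).

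Among the stable genes that rose, Plin2, Acot2 and Crat handle fatty acyl groups. Plin2 coats lipid droplets, and its levels were 126, 243, 200.4 and 199 CPM at 6 °C and 399, 690.1, 570.2 and 963 CPM at 29 °C. Its log2 fold change was 1.77 ± 0.28 (adjusted p = 0.012), and the groups did not overlap. Acot2, a mitochondrial thioesterase that frees fatty acids from coenzyme A, read 3.74, 1.60, 2.94 and 2.93 CPM against 9.26, 20.5, 11.1 and 19.7 CPM (2.41 ± 0.37, adjusted p = 0.00916), lowest at 29 °C in library 9. Crat, which moves acetyl groups between coenzyme A and carnitine, read 30.03, 39.7, 38.5 and 32.3 CPM against 64.2, 96.4, 88.8 and 96.4 CPM (1.30 ± 0.18, adjusted p = 0.00677). Gpi1 and Rpia act on sugar phosphates, at the second step of glycolysis and in the pentose phosphate pathway. Gpi1 rose from 101, 114, 131 and 124 CPM to 193, 418, 319.7 and 466 CPM (1.57 ± 0.22, adjusted p = 0.00677). Rpia rose from 3.74, 1.99, 4.13 and 2.76 CPM to 11.5, 10.9, 9.41 and 9.22 CPM (1.68 ± 0.25, adjusted p = 0.00839). Pprc1, a coactivator related to PGC-1 that acts on mitochondrial biogenesis, rose by 1.18 ± 0.19, the aldehyde dehydrogenase Aldh3b3 by 1.56 ± 0.26 and the adaptor Apbb3 by 1.37 ± 0.21 on the log2 scale.

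The 20 stable genes that fell included Prodh, Ppm1k and Ido2. Prodh, which takes the first step of proline breakdown in mitochondria, read 238, 231, 245 and 218 CPM at 6 °C and 60.1, 74, 69.1 and 97 CPM at 29 °C. Its libraries lay close together within each group, and the log2 fold change was -1.63 ± 0.15 (adjusted p = 0.000347). Ppm1k, the phosphatase that activates the branched-chain keto acid dehydrogenase, read 217, 121, 126 and 190.3 CPM and then 66.8, 41.2, 45.5 and 53.9 CPM (-1.66 ± 0.22, adjusted p = 0.00674). Ido2, a tryptophan-degrading dioxygenase, read 96.4, 94.6, 99 and 99.8 CPM and then 43.4, 63.2, 51.7 and 48.9 CPM (-0.91 ± 0.13, adjusted p = 0.00839). The 6 °C libraries of Ido2 lay close together, and library 9 was the lowest at 29 °C. Dglucy, which handles D-glutamate in mitochondria, fell by 1.04 on the log2 scale, and Pgpep1, a peptidase that removes pyroglutamate, fell by 0.87.

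Other stable genes that fell act in coenzyme A turnover, transport, conjugation and hormone activation. Nudt7, a peroxisomal hydrolase of coenzyme A, read 81.4, 97, 83.5 and 109 CPM at 6 °C and 23, 23.2, 34.8 and 23.6 CPM at 29 °C (-1.82 ± 0.26, adjusted p = 0.00708), highest at 29 °C in library 11. Slc25a23, a mitochondrial carrier exchanging ATP-Mg for phosphate, spread little at 29 °C, with 356, 369, 316 and 335 CPM against 190.4, 200.4, 187 and 195 CPM (-0.83 ± 0.13, adjusted p = 0.00839). Ugt2b1, which joins glucuronic acid to steroids and drugs, read 115, 93.6, 109 and 128 CPM and then 57.6, 44.7, 51.9 and 41.6 CPM (-1.19 ± 0.14, adjusted p = 0.00347), with the caution that its family members are similar in sequence. Nat8f2, of an N-acetyltransferase family, read 1066, 852, 992 and 621 CPM and then 439, 298, 346 and 363 CPM (-1.29 ± 0.20, adjusted p = 0.00839). The deiodinase Dio1, which converts thyroxine to active thyroid hormone, read 125, 118, 126 and 61.8 CPM and then 6.64, 7.90, 15.9 and 8.61 CPM (-3.46 ± 0.36, adjusted p = 0.00156). Library 4 was the lowest of the 6 °C libraries for Dio1 and still stood above every 29 °C library. The remaining stable falls in protein-coding genes ranged from 0.86 (Gsap) to 3.20 (Mmd2) on the log2 scale and included Arl13b, a GTPase of the primary cilium, Tlcd2, Sned1, N4bp2l1, Izumo4 and the kinase Dclk3.

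**Figure D2:**
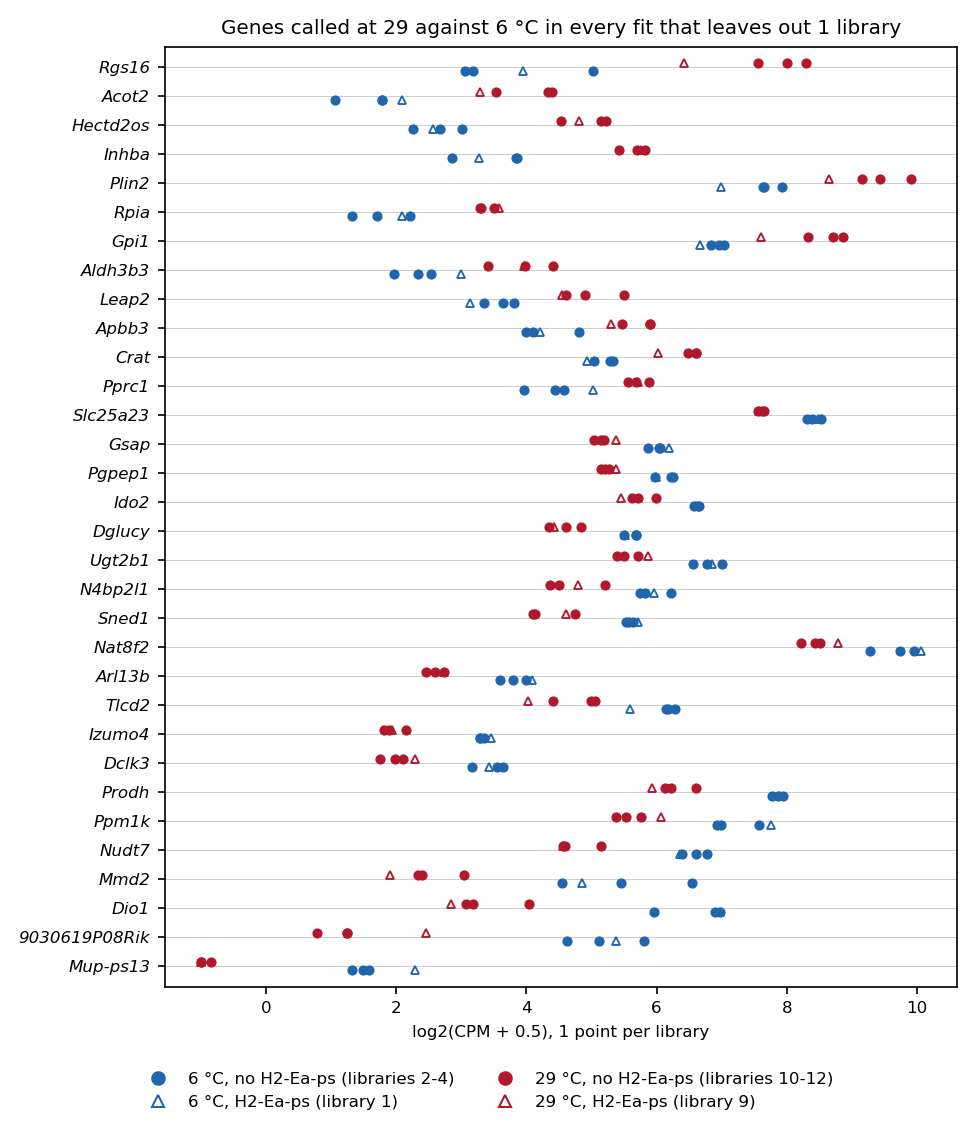
Level of the 32 genes called in every fit that leaves out 1 compared library, as log2(CPM + 0.5) on the x axis, 1 point per library, with 6 °C in blue, 29 °C in red and the H2-Ea-ps libraries 1 and 9 as open triangles. Genes are ordered by fold change, and the red and blue points of a gene do not overlap.

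Several of the highest folds belonged to genes that spread widely at 29 °C. For G0s2, Klf10 and Txnip, libraries 10 and 12 were the highest at 29 °C and library 9 the lowest. G0s2, an inhibitor of the lipase that opens fat stores, read 7.49, 20.7, 28 and 8.53 CPM at 6 °C and 36.8, 142, 79 and 191 CPM at 29 °C (log2 fold change 2.80 ± 0.56, adjusted p = 0.0338). Klf10, a zinc finger factor induced by TGF beta, read 21.1, 18.7, 41.2 and 10.5 CPM and then 60.7, 181, 126 and 219 CPM (2.67 ± 0.49, adjusted p = 0.0241). Txnip, a thioredoxin-binding protein whose gene responds to glucose, read 65.9, 88.5, 103 and 69.4 CPM and then 122, 581, 383 and 654 CPM (2.41 ± 0.48, adjusted p = 0.0276). Angptl8, a feeding-induced inhibitor of lipoprotein lipase activity, rose by 3.32 ± 0.68, and Jun, an immediate early transcription factor, by 2.67 ± 0.48 on the log2 scale. Slc17a8, a vesicular glutamate transporter, rose by 2.72 ± 0.57, and Tubb1, the beta tubulin of platelets and megakaryocytes, by 2.49 ± 0.43.

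Upp2, Cyp2a5 and Serpina6 had wide falls outside the stable set. Upp2, which splits uridine, read 637, 213, 365 and 502 CPM at 6 °C and 10.6, 21.4, 41.3 and 48.5 CPM at 29 °C (-3.81 ± 0.61, adjusted p = 0.018). Cyp2a5, which oxidises coumarin and nicotine, read 351, 112, 366 and 122 CPM and then 29.2, 46.5, 37.5 and 75 CPM (-2.34 ± 0.48, adjusted p = 0.0346). Serpina6, the corticosteroid-binding globulin of plasma, read 566, 281, 445 and 479 CPM and then 82.5, 119.6, 149 and 151 CPM (-1.82 ± 0.40, adjusted p = 0.0366). In each of these library 9 was the lowest of all. The 2 groups stood apart, which the choice of widest folds required. Slc46a3, a lysosomal transporter, fell by 1.88, Gas1, a membrane protein of hedgehog signalling, by 1.90, the apoptosis inducer Bmf by 1.75 and the lipid phosphatase Mtmr7 by 1.65 on the log2 scale. Gapdh rose by 2.84 ± 0.65, but its many processed pseudogenes can share its reads. Hilpda, a lipid droplet protein, rose by 2.89 ± 0.68 with overlapping groups, since library 4 (2.84 CPM) exceeded library 9 (2.24 CPM). With Fgf21 and Gadd45b, the genes named for the size of their fold outside the stable set number 18. Without library 10 all 18 missed the threshold (adjusted p 0.053 to 0.131), without library 4 17 did, without library 3 12, without library 11 11, without libraries 1 and 12 9 each, without library 2 7 and without library 9 4. Angptl8, Klf10, Gapdh and Cyp2a5 also missed it without the libraries holding H2-Ea-ps. Angptl8, G0s2, Gapdh and Hilpda missed it with only the 8 libraries compared, and Gapdh with limma voom. With no low-count filter, Angptl8, Bmf, Cyp2a5, G0s2, Gapdh, Hilpda, Klf10, Serpina6, Slc17a8 and Txnip did.

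Further genes were named for the size of their difference in CPM. Tkfc, a triokinase of fructose breakdown, read 228, 332, 336 and 328 CPM at 6 °C and 603, 808, 696 and 1049.6 CPM at 29 °C (1.37 ± 0.24, adjusted p = 0.0197). Slc25a47, a mitochondrial carrier made mainly in liver, read 293, 302, 273 and 363 CPM and then 483, 1094, 814 and 1321 CPM (1.59 ± 0.31, adjusted p = 0.0242). The groups stood apart for both. Bhlhe40, a repressor within the circadian clock, rose by 1.55 ± 0.36, with library 9 (185 CPM) inside the 6 °C range. Slc38a4, a sodium-coupled carrier of neutral amino acids, read 1325, 985, 1249 and 1376 CPM and then 338, 474, 563 and 697 CPM (-1.25 ± 0.25, adjusted p = 0.0242). Library 9 was its lowest 29 °C library, and the groups did not overlap. Tat, which starts tyrosine breakdown, fell by 1.62, Tdo2, which opens the tryptophan ring, by 1.15, and Slc7a2, a carrier of arginine and lysine, by 1.19 on the log2 scale. All 7 of these genes missed the threshold without library 4 (adjusted p 0.0528 to 0.108) or library 10 (0.064 to 0.121), 6 without library 3, 5 without library 11, 3 without library 12, 2 each without libraries 2 and 9, and 1 without library 1.

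**Figure D3:**
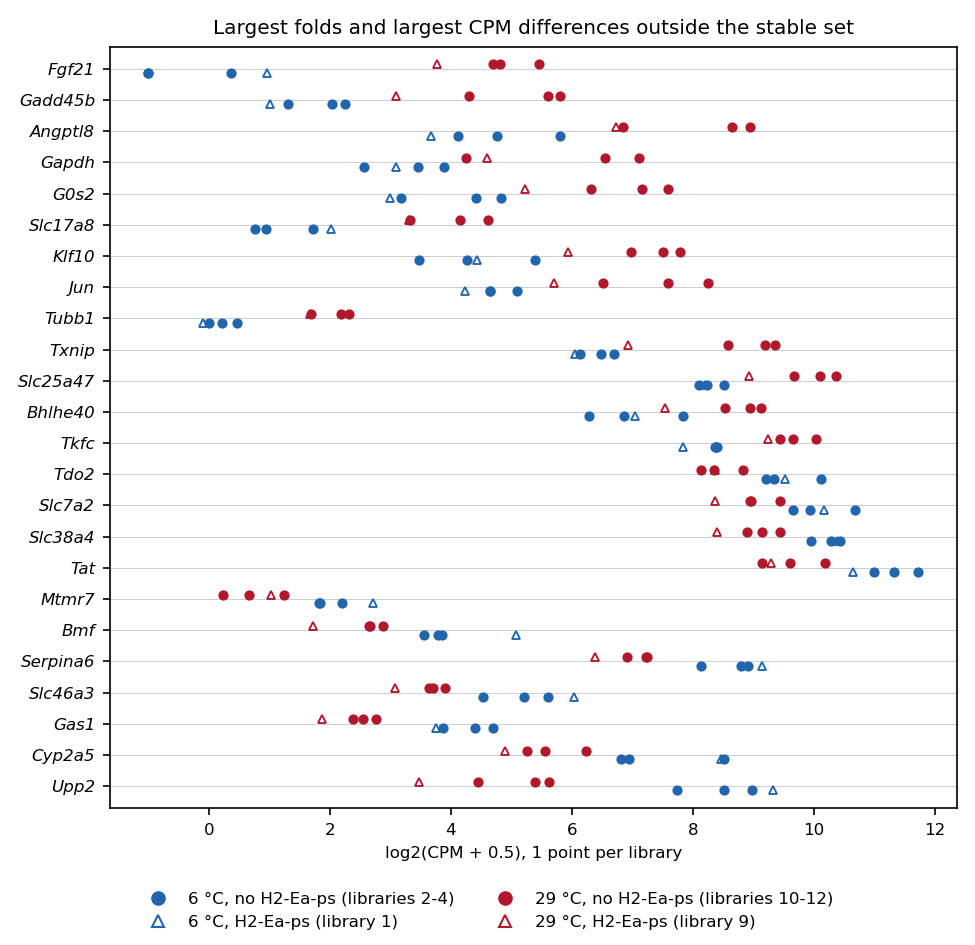
Level of genes with the highest and lowest fold changes, or the highest differences in CPM, outside the stable set, as log2(CPM + 0.5) on the x axis, 1 point per library (6 °C blue, 29 °C red, triangles the H2-Ea-ps libraries 1 and 9). For most genes that rose, the red triangle of library 9 is the lowest of its group.

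Genes were then grouped into 43 lists of hepatic pathways, with calls set against the shares over all genes: 2.53% without the term, and 6.32% higher and 6.23% lower with it. In 28 of the lists at least 1 member passed without the term. With the term, 13 lists had calls in the lower direction and none in the higher, 6 the reverse, and 3 had no call. Since most list members missed the threshold without the term, both counts are given.

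Enzymes that join glucuronic acid, sulphate or glutathione to drugs, steroids and bile pigments were lower at 29 °C where they were called. Of 32 such conjugating enzymes tested, 3 were lower without the term and 16 with it, none was higher in either fit, and the median log2 fold change was -0.62. Ugt2b1 belonged to the stable set. Sult1d1, a sulphotransferase of amines and phenols, read 139.8, 102, 111 and 114 CPM at 6 °C and 41.9, 48.1, 71.6 and 58.2 CPM at 29 °C (-1.09 ± 0.18, adjusted p = 0.0154). Ugt2b36 read 291, 223, 261 and 249 CPM and then 125, 174, 187 and 175 CPM (-0.63 ± 0.16, adjusted p = 0.0492). The groups stood apart for both enzymes, by a narrower gap for Ugt2b36. With the term, the list's calls numbered between 12 and 19 across the fits leaving out 1 library, and without the 4 libraries holding H2-Ea-ps 13 were lower and none higher. In bile acid synthesis and transport, 25 genes were tested, with 3 lower without the term and 9 lower with it, none higher in either, and a median of -0.38. The 3 were Cyp2c70, which makes the muricholic acids of the mouse (-0.91 ± 0.20), Slc10a2, a bile acid importer (-1.18 ± 0.25), and Cyp7b1, which hydroxylates oxysterols (-0.87 ± 0.20). The 9 lower calls with the term became 6 without library 9, 10 or 11, and 1 gene was called higher without library 9. Cyp2c70 read 639, 508, 552 and 583 CPM at 6 °C and 247, 362, 315 and 290.1 CPM at 29 °C, with no overlap (adjusted p = 0.0352). Cyp7a1, the rate-limiting enzyme of the classic bile acid pathway, did not pass in either fit. It read 632, 80.4, 242 and 167 CPM and then 57.3, 18.1, 18.8 and 18.4 CPM, a log2 difference of -3.32 ± 0.96 (adjusted p = 0.0978 without the term and 0.075 with it), and was named after its values were seen.

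In the tricarboxylic acid cycle and its entry step, 3 of 24 genes were lower without the term, and 8 were lower and 1 higher with it, with a median of -0.33. The 3 were Sucla2, a subunit of succinyl-CoA synthetase (-0.69 ± 0.13), Fh1, fumarase (-0.80 ± 0.17), and Dld, the shared dehydrogenase subunit of the keto acid dehydrogenases (-0.50 ± 0.12). Fh1 read 168, 187, 212 and 252 CPM at 6 °C and 101, 98.2, 122 and 148 CPM at 29 °C, the lowest 6 °C value lying above the highest 29 °C value. The single member that rose with the term was Pdhb, a subunit of pyruvate dehydrogenase (0.67 ± 0.13, adjusted p = 0.0052), named after its value was seen. The 8 lower calls with the term numbered between 6 and 11 across the fits leaving out 1 compared library. In one-carbon and methionine metabolism 25 genes were tested, with 1 higher and 1 lower without the term, 2 higher and 10 lower with it, and a median of -0.33. Shmt1, which moves a one-carbon unit from serine to folate, read 189, 200.4, 244 and 218 CPM and then 104, 128, 110.3 and 123 CPM (-0.87 ± 0.18, adjusted p = 0.0248). The 10 lower calls became 5 without library 9 and 5 without library 11, and 7 without the 4 libraries holding H2-Ea-ps.

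Genes of the periportal zone of the lobule, where urea and glucose are made, gave 0 calls in edgeR without the term among 20 tested, with 9 at an unadjusted p under 0.05 and 5 called by DESeq2, and 9 lower calls and none higher with the term (median -0.56). Ass1, Gls2 and Cyp2f2 were among the 9. Ass1, an enzyme of the urea cycle, read 569, 1171, 1032 and 1954 CPM at 6 °C and 284, 559, 515 and 718 CPM at 29 °C. Gls2, the liver glutaminase, read 322, 501, 414 and 1043 CPM and then 102, 204, 189.5 and 272 CPM. Cyp2f2, a periportal cytochrome, read 243, 672, 750.4 and 985 CPM and then 36.3, 205, 137 and 334 CPM. Library 9 was the lowest of the 29 °C libraries for all of them, and library 1 the lowest at 6 °C, so that the groups overlapped for Ass1 and Cyp2f2. With the term the log2 fold changes were -1.17 ± 0.20, -1.58 ± 0.26 and -2.07 ± 0.33 (adjusted p = 0.00255, 0.00281 and 0.00315), and without it -1.19 ± 0.36, -1.57 ± 0.39 and -1.89 ± 0.80 (adjusted p = 0.0978, 0.0523 and 0.225). Leaving out the 4 libraries holding H2-Ea-ps gave 6 lower calls of 20. Of 24 genes of the opposite, pericentral zone, 1 was higher and 1 lower without the term, and 1 higher and 6 lower with it (median -0.39), the lower calls becoming 3 without library 1, 3 or 10 and 4 without library 9 or 11. The pair called without the term was Oat, which handles ornithine (-1.02 ± 0.25), and Tbx3, a factor of pericentral identity, which rose (1.08 ± 0.22). Of 20 genes of the growth hormone and IGF1 axis, Cyp7b1 was lower without the term and 5 were lower with it, among them the hormone receptor Ghr (-0.70 ± 0.17 with the term) and Igf1 (-0.80 ± 0.20). Those 5 became 2 without library 1, 10 or 11 and 3 without library 9.

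Several other lists had few calls without the term, all of them lower. Esr1, the oestrogen receptor alpha, was the 1 call without the term among 31 nuclear receptors and coactivators, at 141, 115, 107 and 126 CPM and then 47.8, 72.8, 61.4 and 59.4 CPM (-1.02 ± 0.20, adjusted p = 0.0248). With the term 1 of that list was higher and 5 were lower, the latter becoming 2 without library 1 or 10 and 3 without library 3 or 9. Hspd1, the mitochondrial chaperonin, was the 1 call among 22 heat shock proteins (-0.47 ± 0.11, median of the list -0.43), and with the term 2 were lower, or between 1 and 3 with 1 library left out. Of 31 genes of purine and pyrimidine metabolism, Tk1, thymidine kinase of the S phase, fell by 1.36 on the log2 scale, and Upp2 was the other call. With the term 2 of them were higher and 6 lower, the latter becoming 3 without library 1, 3, 4 or 11. Of 33 coagulation and complement genes, Mbl2, a lectin that starts complement, and Klkb1, plasma prekallikrein, fell by 0.80 and 0.68 on the log2 scale. With the term 5 were lower, or 3 without library 1, and none of the 33 rose in either fit. In all 16 genes named in these mostly lower lists for a call without the term, other than Ugt2b1 and Upp2, the call was lost without library 10 (adjusted p 0.064 to 0.134). Leaving out library 4 lost it in 15, library 11 in 14, library 3 in 13 and library 12 in 12. Leaving out library 9 lost it in 11, and library 1 or 2 in 7. Of 22 major urinary protein genes, which respond to growth hormone and are nearly identical in sequence, 6 could be tested. Mup18 read 1.58, 1.33, 1.43 and 0.836 CPM at 6 °C and Mup16 0.576, 1.33, 6.51 and 1.09 CPM, and both were at 0 counts in all 4 libraries at 29 °C, where 3 counts would be 0.158 to 0.264 CPM (adjusted p = 0.02 and 0.043). Reads of this family can be split among its copies, so these levels are uncertain.

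In other lists the calls were mostly higher. Of 18 genes of lipid droplets and lipolysis, 4 were higher without the term (Plin2, G0s2, Plin5 and Hilpda) and 7 with it, none lower in either, and the median over the list was 0.25. Only 10 of the 18 had a positive fold change. Plin5, the droplet coat protein of oxidative tissues, read 14.9, 28.8, 22.2 and 29.7 CPM at 6 °C and 57.3, 78.4, 67.4 and 82.8 CPM at 29 °C, with no overlap (1.58 ± 0.34, adjusted p = 0.0341). The 7 became 4 without library 3. Cidec, which fuses droplets, was among those called with the term only and was named after its values were seen. It read 0.216, 0.266, 0.953 and 0.418 CPM and then 3.78, 3.47, 4.03 and 2.03 CPM, with a log2 fold change of 2.77 ± 0.64 with the term (adjusted p = 0.0116) and 2.79 ± 0.72 without it (adjusted p = 0.058). In fatty acid oxidation and targets of the receptor PPARA, 25 of 27 tested genes had a positive fold change and the median was 0.47, but only Acot2 was called without the term and 3 with it. Without library 9 that count with the term was 6, without library 3 it was 5, and without libraries 1, 10 or 12 it was 2.

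Genes of ribosome assembly in the nucleolus had positive fold changes in 29 of 30 (median 0.26), with 2 called higher without the term, 7 with it and none lower. Gnl3, a nucleolar GTPase, read 28.4, 19.3, 20.8 and 15.6 CPM at 6 °C and 42.7, 33.9, 37.9 and 44.2 CPM at 29 °C (0.91 ± 0.17, adjusted p = 0.021). Ddx21, a nucleolar helicase, read 41.8, 33.8, 36.7 and 33.5 CPM and then 55.6, 57.3, 46 and 59.7 CPM (0.58 ± 0.14, adjusted p = 0.0405). Neither overlapped, and the 7 calls became 4 without library 3, 10 or 12. Among proteins of the finished ribosome, 0 of 65 cytosolic and 0 of 72 mitochondrial members passed edgeR's test without the term. Fold changes were positive in 55 of the 65 (median 0.29) and in 6 of the 72 (median -0.24). At an unadjusted p under 0.05 there were 6 and 9, DESeq2 called 1 of each, and 3 cytosolic members were higher and 3 mitochondrial ones lower with the term. The 3 cytosolic calls became 0 without library 1, 6 without library 9 and 1 without library 3, 4, 10 or 12. In the integrated stress response, which couples amino acid shortage to transcription, Cars, the cysteinyl-tRNA synthetase, was the 1 call of 27 without the term (0.83 ± 0.21), and 4 were higher with it, or 2 without library 11. Signalling genes gave scattered calls. Of 23 genes of Notch and TGF beta signalling, 4 were higher and 1 lower without the term, and 5 and 2 with it. Besides Inhba they included Hes1, a repressor downstream of Notch (1.75 ± 0.33), Tgfb1, the TGF beta 1 ligand (0.80 ± 0.17, named after its value was seen), and Hes6, which opposes Hes1 and fell (-1.09 ± 0.20). Hes1 read 9.94, 8.64, 11.1 and 8.62 CPM and then 14.4, 52.3, 22.5 and 40.4 CPM, and Hes6 29.9, 40.1, 23.1 and 42.4 CPM and then 15, 14.8, 18.4 and 15.2 CPM, so that each pair of groups stood apart. Dusp8, a phosphatase of stress kinases (2.33 ± 0.55), and Maff, a small basic leucine zipper factor (1.89 ± 0.45), rose among 23 genes of growth factor response, in both cases with library 9 inside the 6 °C range. With the term 5 of these 23 were higher and 3 lower, and the higher calls ran from 1 (without library 1, 3, 10 or 12) over 2 (without library 11) to 6 across fits leaving out 1 library. Of 17 genes of the thyroid hormone response (median -0.26), 1 was higher and 2 were lower without the term, and 3 and 3 with it. Gpd2, the mitochondrial glycerol phosphate dehydrogenase induced by thyroid hormone, rose by 0.76 ± 0.17, and the lower pair was Dio1 and Cyp7b1. With the term, 1 higher and 6 lower were called without library 4, and 1 and 4 without library 11. Of 27 mitochondrial carriers (median -0.12), 2 were higher and 1 was lower without the term, and 2 and 3 with it, the 2 becoming 5 without library 9. Ucp2 rose by 0.87 ± 0.19, Slc25a47 was the other higher call and Slc25a23 the lower one.

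Replication-dependent histones, made during S phase, had the highest median of the pathway lists, 1.36 over 26 tested genes. Of these, 2 were higher without the term, and 12 higher and 2 lower with it. Hist1h1a, a linker histone, read 7.63, 6.78, 6.67 and 5.86 CPM at 6 °C and 37.6, 21.2, 14.9 and 12.3 CPM at 29 °C (1.67 ± 0.36, adjusted p = 0.0343). Hist1h2ak read 3.60, 3.59, 2.15 and 1.92 CPM and then 11.3, 8.02, 8.0 and 8.0 CPM (1.65 ± 0.40, adjusted p = 0.0469). Library 9 was the highest for both. Near-identical copies can share reads in this family. The 12 higher calls became 5 without library 1, 7 without library 10 and 6 without library 11, and 10 without the 4 libraries holding H2-Ea-ps. Tk1, also of the S phase, fell, as given above. Markers of granulocyte precursors shared the direction of the histones between the groups: all 12 had a positive fold change (median 2.09), 1 was called without the term (Chil3, 2.24 ± 0.41) and 5 with it. Those 5 became 10 without library 4, 3 without library 1, 3 or 10, and 2 without the libraries holding H2-Ea-ps. The summed level of the 12 markers was 1148, 949.9, 698 and 28.5 CPM at 6 °C and 3696, 1084, 1102 and 916 CPM at 29 °C, so that library 9 was the highest and library 4 the lowest. None of the 12 was at 0 in all libraries. Markers of neutrophils summed to 75.6 to 676 CPM and 427 to 1278 CPM, and those of erythroid cells to 123 to 233 CPM and 124 to 494 CPM. Their part in the histone result was not tested. Of the 12 genes named by rule in these lists for a call without the term and not already counted with another set, all 12 missed the threshold without library 4 (adjusted p 0.0606 to 0.134). The number was 11 without library 10, 10 without library 3, 11 or 12, 8 without library 1 or 2, and 6 without library 9.

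**Figure D4:**
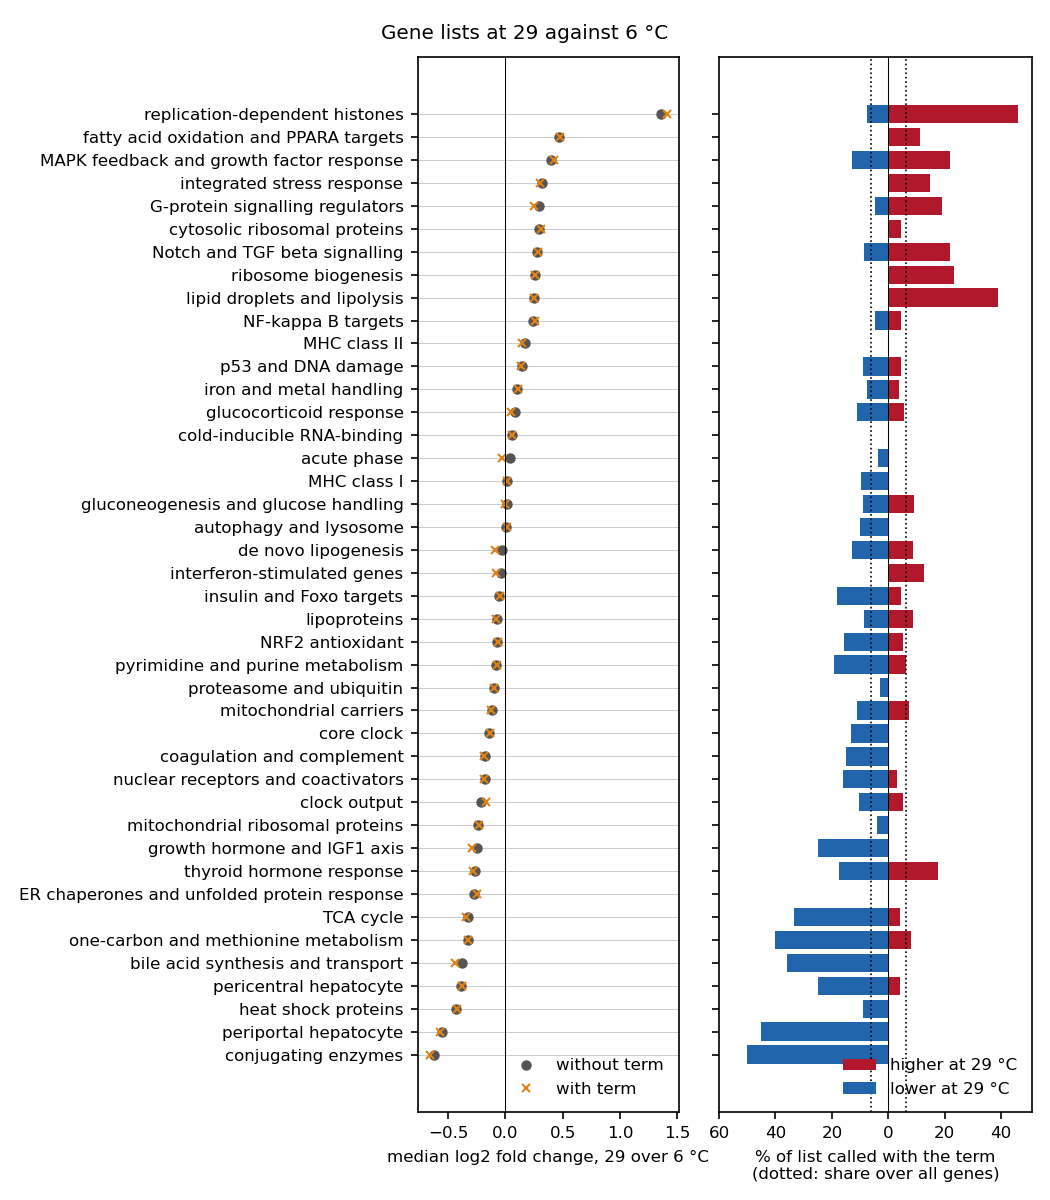
Left, median log2 fold change of 42 pathway lists at 29 over 6 °C without the term (circles) and with it (crosses). Right, share of each list's tested genes called higher (red) or lower (blue) with the term, with dotted lines at the shares over all genes (6.32% and 6.23%); the major urinary proteins are left out because most of their 29 °C counts are 0. Replication-dependent histones have the highest median (1.36) and conjugating enzymes the lowest (-0.62).

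Lists named for cold, protein folding and the clock showed few calls or none. Of 10 cold-inducible RNA-binding proteins 0 passed in either edgeR fit, with 0 and 1 at an unadjusted p under 0.05 without and with the term and 0 called by DESeq2. Cirbp read 10.4, 9.17, 8.10 and 7.86 CPM at 6 °C and 9.95, 10.7, 5.79 and 12 CPM at 29 °C, and Rbm3 19.9, 11.7, 10.01 and 7.53 CPM and then 27.2, 10.7, 8.50 and 18.9 CPM. Both pairs of groups overlapped, with log2 differences of 0.11 ± 0.32 and 0.40 ± 0.40 (adjusted p = 0.899 and 0.633). Of 26 chaperones of the endoplasmic reticulum 0 passed in either edgeR fit (median -0.27), with 0 and 2 at an unadjusted p under 0.05 and 0 and 1 called by DESeq2. Among 15 core clock genes 0 passed in edgeR without the term, 4 had an unadjusted p under 0.05, DESeq2 called 2, and 2 were lower with the term, or 0 without library 1, 3, 9 or 10, 1 without library 11 or 12 and 3 without library 2. Clock transcripts differed widely within the 6 °C group. Dbp, a clock output factor, read 143, 5.72, 47.1 and 6.69 CPM at 6 °C and 16.8, 2.22, 4.63 and 7.66 CPM at 29 °C, and Arntl, the activator BMAL1, read 1.51, 42.8, 10.7 and 43.6 CPM and then 15.7, 32, 28.4 and 26.1 CPM. Libraries 1 and 3 were high for Dbp and low for Arntl, and libraries 2 and 4 the opposite. Per2 read 97.4, 16.1, 39.3 and 11.5 CPM and then 46.4, 21.6, 26.2 and 24.5 CPM, and Nr1d1 57.8, 80.9, 131 and 79.8 CPM and then 64.9, 75.7, 62.9 and 112 CPM, with overlap in both. None of the 4 passed (adjusted p = 0.208 for Dbp, 0.976 for Arntl, 0.716 for Per2 and 0.835 for Nr1d1), and the labels give no hour of collection. What part these differences have in other genes was not tested. Of 32 interferon-stimulated genes 0 passed in edgeR without the term (5 at an unadjusted p under 0.05 and 3 called by DESeq2) and 4 were higher with it. Those 4 became 1 without library 10 and 2 without library 3, 11 or 12, and without library 2 there were 5 higher and 3 lower.

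Markers of tissues beside the liver were not spread evenly. Intestinal markers (20 genes, with Defa24 and Fabp6 at 0 in all 8 libraries) summed to 14.4 to 30.9 CPM at 6 °C and to 35.0 to 880 CPM at 29 °C, the highest being library 11. Markers of mesothelium and gallbladder summed to 2.68 to 8.74 CPM and to 1.63 to 356 CPM, again highest in library 11. Pancreatic markers (12 genes, Prss1 at 0 in all 8) were highest in library 3, at 59.4 CPM. Lgals4, an intestinal galectin, was called higher at 10.1, 3.85, 5.64 and 4.43 CPM and then 15.5, 15.5, 40.1 and 21.8 CPM (1.94 ± 0.45, adjusted p = 0.0459), and the groups did not overlap. It was the 1 call of the intestinal list without the term. That list had 0 calls without the term when library 2, 3, 4, 9, 10, 11 or 12 was left out. Kupffer cell and macrophage markers (13 genes) summed to 588 to 1086 CPM and to 834 to 1549 CPM, with 0 called by edgeR without the term (3 at an unadjusted p under 0.05, 1 called by DESeq2) and 1 higher with it, or 7 without library 1, 3 without library 2 and 2 without library 9. Mammary and tumour epithelial markers (12 genes) summed to 459.8 to 1165 CPM and to 603 to 1272 CPM, and Csn2, Elf5, Krt5 and Wap were at 0 in all 8 libraries. That list also holds Esr1, given above among the nuclear receptors, and Lcn2, which is in the granulocyte precursor list as well. Its sum is therefore not specific to mammary or tumour tissue.

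The term added 1505 genes, 779 higher and 726 lower. In those named here, libraries 1 and 9 tended to sit at the same edge of their own group. Acmsd, which diverts tryptophan breakdown away from NAD, read 21.5, 51.7, 44.9 and 153 CPM at 6 °C and 5.71, 11.8, 9.26 and 17.1 CPM at 29 °C (-2.53 ± 0.42 with the term, adjusted p = 0.00451; -2.63 ± 0.74 without it, adjusted p = 0.0888). Ces3b, a carboxylesterase, read 60.5, 150.1, 101 and 234 CPM and then 11.6, 21.4, 32.6 and 46.2 CPM (-2.30 ± 0.34 with the term, adjusted p = 0.00245). In both, libraries 1 and 9 were the lowest of their groups. The groups stood apart, which the choice of these genes required, against 55.6% of all genes called with the term only. Rad51b, a DNA repair gene, read 13.6, 2.26, 4.29 and 0.753 CPM and then 28.8, 18.4, 16.4 and 15.8 CPM, highest in libraries 1 and 9 on both sides (2.29 ± 0.40 with the term, adjusted p = 0.00404). Ppp1r3c, which targets a phosphatase to glycogen, read 5.47, 50.4, 44.3 and 38.4 CPM and then 43.9, 144, 96.9 and 155 CPM, lowest in libraries 1 and 9 (1.83 ± 0.29 with the term, adjusted p = 0.00281). Pklr, the liver pyruvate kinase, read 102, 168, 235 and 94.9 CPM and then 198, 292, 343 and 336 CPM (0.96 ± 0.21 with the term, adjusted p = 0.0093). Ppp1r3c and Pklr were named as list members, a choice that did not require separate groups. For both, library 9 lay inside the 6 °C range, so the groups overlapped.

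Libraries 1 and 9 allowed a read-out that shares no library with the call. In libraries 10 to 12 against 2 to 4, 1490 of 14750 genes tested were called, and for 1309 of them (87.9%) the difference of library 9 minus library 1 had the same sign, against 65.3% of all genes. Of the 742 genes called higher 636 (85.7%) were higher in library 9, and of the 748 called lower 673 (90.0%) were lower. The median log2 fold change of the genes called higher was 1.02 in the call and 0.71 in library 9 minus library 1, and of those called lower -0.77 and -0.59. A difference of at least 1 on the log2 scale had the same sign in 455 called genes and the opposite sign in 6. A test of whether the temperature change itself differed between libraries with and without H2-Ea-ps gave 0 calls with edgeR among 15006 genes, with 1009 at an unadjusted p under 0.05, and 42 calls with DESeq2. At each of these temperatures 1 library held H2-Ea-ps, so no spread within that class was measured there.

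**Figure D5:**
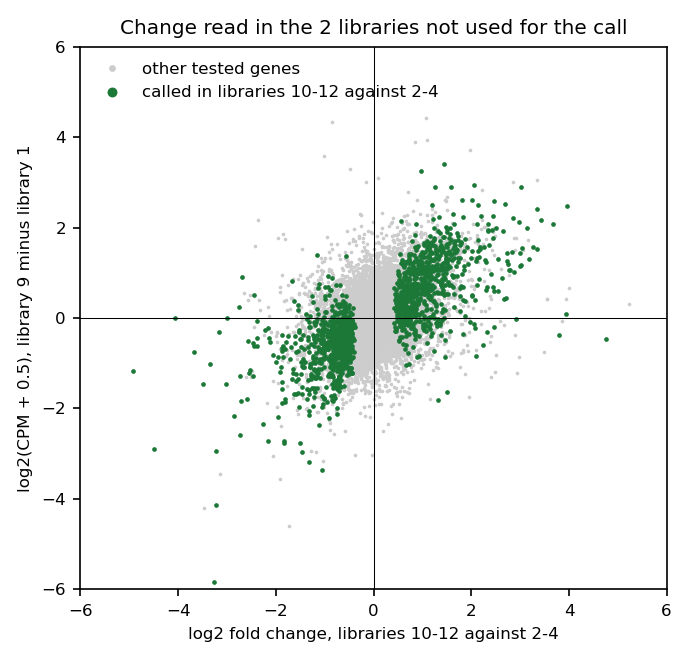
Log2 fold change of each gene in libraries 10 to 12 against 2 to 4 (x axis) and difference of log2(CPM + 0.5) between libraries 9 and 1 (y axis), 1 point per gene, with the genes called in the former in green. Axes end at 6 on either side, which leaves out 7 genes. Most green points lie in the lower left and upper right, 1309 of 1490 having the same sign on both axes.

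Of 12910 protein-coding genes 2.70% were called without the term and 13.6% with it. Of 874 long non-coding RNAs 2.40% were called without the term, 5 higher and 16 lower, and 10.1% with it, 21 higher and 67 lower. Of 815 genes that the annotation places in its class TEC the shares were 0.613% and 3.68%, and of 192 processed pseudogenes 0.521% and 4.17%. Hectd2os (chr19:36614052-36705641), a long non-coding RNA named for its position opposite Hectd2, belonged to the stable set and read 5.40, 7.58, 5.88 and 4.27 CPM at 6 °C and 27.6, 36.9, 22.6 and 34.8 CPM at 29 °C (2.41 ± 0.23, adjusted p = 0.000386). Hectd2 itself, named after its values were seen, read 4.03, 5.32, 5.48 and 5.27 CPM and then 4.09, 5.57, 5.38 and 5.83 CPM, a difference of 0.06 ± 0.25 (adjusted p = 0.933). How the counting used strand is not given in the sources used here, so reads of overlapping genes cannot be told apart. 9030619P08Rik (chr15:75427606-75431829), annotated as a transcribed unprocessed pseudogene, read 40.9, 34.3, 55.4 and 24.2 CPM and then 5.02, 1.88, 1.86 and 1.22 CPM (-3.98 ± 0.47, adjusted p = 0.00376). Mup-ps13, a pseudogene within the major urinary protein cluster, read 4.39, 1.99, 2.30 and 2.51 CPM and then 0, 0.0569, 0 and 0 CPM (adjusted p = 0.00376), and its family allows reads to be shared. Gm33699 rose by 3.34 ± 0.57, F830115B05Rik by 1.59 ± 0.32 and Mir142hg, the host transcript of a microRNA of blood cells, by 1.64 ± 0.34, while 0610005C13Rik fell by 0.82 and Gm15638 by 1.38 on the log2 scale. These 5 were all lost without library 4 (adjusted p 0.0516 to 0.0822) or library 10 (0.0628 to 0.0848), 4 without libraries 3 or 11, 3 without library 12 and 1 each without libraries 1 and 9.

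Promoters, taken from RefSeq (GRCm38.p6) as 250 bases before to 50 after each start, were searched on both strands for 19 motifs, and the E-box and the forkhead motif are described first. The E-box CACGTG, a site of basic helix-loop-helix factors that include clock proteins and MYC, lay in 16.5% of 164 promoters of genes called higher without the term (127 matched genes), in 5.14% of 214 promoters of genes called lower and in 9.56% of 13673 promoters of all tested genes. With the term the shares were 9.58% of 971 promoters and 8.34% of 959, and 7.15% of the 32851 RefSeq promoters held it. The forkhead motif GTAAACA lay in 5.61% of promoters of genes called lower without the term and 5.74% with it, in 1.83% and 1.65% of those called higher, and in 2.90% of those tested. CCAAT lay in 34.1% of promoters of genes called higher without the term, 43.9% of those called lower and 37.4% of those tested. In the same order GGGCGG lay in 55.5%, 53.3% and 59.0%, AGGTCA in 16.5%, 19.6% and 13.2%, TATAAA in 9.15%, 7.94% and 8.04%, and TGANTCA in 7.32%, 6.07% and 5.54%. TGACGTCA lay in 4.27%, 0.935% and 2.79% and TTATGNAA in 3.05%, 3.74% and 2.22%. The other 10 lay in at most 1.87% of each set: TGACGCAA, TTTGGCGC, TGACTCAGC, a heat shock element, a glucocorticoid response element, direct repeats of AGGTCA with the spacings DR1 and DR4, and HNF1, NF-kappa B and SRF sites. Motifs can overlap, as AGGTCA does with its repeats and TGANTCA with TGACTCAGC. Mean GC content was 59.8% for genes called higher, 57.8% for those called lower and 59.9% for those tested. These shares are descriptions without a test. The promoters of 3 genes that rose and hold the E-box are printed 5′ to 3′ on the gene's strand, to show where it lies, with CACGTG in capitals.
Fgf21, chr7:45615441-45615740, minus strand: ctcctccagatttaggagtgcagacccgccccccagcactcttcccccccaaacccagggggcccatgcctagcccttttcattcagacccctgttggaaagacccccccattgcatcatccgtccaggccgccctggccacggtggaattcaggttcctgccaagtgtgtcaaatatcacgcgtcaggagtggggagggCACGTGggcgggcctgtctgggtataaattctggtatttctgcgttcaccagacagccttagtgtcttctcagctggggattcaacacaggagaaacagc
Gadd45b, chr10:80929841-80930140, plus strand: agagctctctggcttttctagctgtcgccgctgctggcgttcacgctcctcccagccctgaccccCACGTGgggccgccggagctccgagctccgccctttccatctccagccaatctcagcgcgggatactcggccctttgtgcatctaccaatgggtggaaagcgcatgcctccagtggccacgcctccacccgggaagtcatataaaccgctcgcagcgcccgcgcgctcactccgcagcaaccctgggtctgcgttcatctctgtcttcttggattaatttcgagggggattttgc
Plin2, chr4:86670010-86670309, minus strand: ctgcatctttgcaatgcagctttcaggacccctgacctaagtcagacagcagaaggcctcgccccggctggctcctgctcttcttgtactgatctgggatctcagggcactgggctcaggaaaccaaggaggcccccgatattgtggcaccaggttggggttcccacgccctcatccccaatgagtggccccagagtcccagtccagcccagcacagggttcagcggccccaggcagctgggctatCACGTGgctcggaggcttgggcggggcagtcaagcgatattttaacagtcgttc
The motif starts 50 bases before the start site in Fgf21, 185 before it in Gadd45b and 4 before it in Plin2. Fgf21, a hormone of the fasted and protein-restricted liver, read 1.4, 0, 0.794 and 0 CPM at 6 °C and 13.1, 43.5, 25.4 and 27.6 CPM at 29 °C (5.45 ± 0.97, adjusted p = 0.0228). Gadd45b, a stress-induced protein of growth arrest, read 1.51, 4.25, 1.99 and 3.60 CPM and then 8.03, 55.3, 19.2 and 48.2 CPM (3.56 ± 0.60, adjusted p = 0.0197). Library 9 was the lowest 29 °C library in both. No library of one temperature reached the range of the other, which the choice of widest folds required.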

How the data were processed

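Total RNA of mouse liver, depleted of ribosomal RNA, was sequenced, per the labels' protocols. The authors deposited 1 table of raw counts per gene, whole numbers with no normalization, and each gene carries its symbol, biotype and Ensembl identifier with version, per the file headers. STAR 2.6.1a, bcl2fastq, DESeq2 1.44.0 and the build GRCm38 are named, with no role or order, in the submitters' processing notes. Which program counted the reads, and whether it used strand, is not given in the sources used here. Columns were matched to samples through the library name in their description, and positions come from GENCODE vM21 (GRCm38).

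All 12 libraries, in 3 groups of 4, were scaled by TMM, filtered on low counts within groups (filterByExpr) and fitted by edgeR's robust quasi-likelihood method (edgeR 4.0.16, R 4.3.3). Tests were two-sided, with Benjamini-Hochberg adjustment over the 15006 genes tested and a threshold of 0.05. The fit without the term had 9 residual degrees of freedom and a common biological coefficient of variation of 0.321, and the fit with it 8 and 0.223. The term marks libraries in which H2-Ea-ps reached 1 CPM, so it comes from the data and not from the labels. The fits were also run on simulated counts drawn without any H2-Ea-ps effect. That run therefore does not test the difference between the fits with and without the term. Depth is 7615585 to 19001126 counts in the 8 libraries compared. Every pair of replicates differed by more than sampling noise.

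The comparison, the 60 gene lists (43 pathways, 17 marker sets) and the tests were chosen with earlier results of these data known. A rule named the genes: widest folds, lowest p and widest CPM differences among called genes, the genes called in every fit that left out 1 compared library, up to 4 called members per list (called with the term where none was without it), non-coding genes, genes called only with the term, and Fgf21, Cirbp, Rbm3, Dbp, Nr1d1, Per2 and Arntl. The choice by widest fold, and that of genes called only with the term outside the lists, took only genes whose groups did not overlap. Other genes are named as list counts required, after their values were seen. Some of the chosen genes are left out of the text and of the plot of the widest changes, and are not reported here. Alternatives were other scalings (DESeq2 size factors, upper quartile, trimmed library sizes), other low-count filters, DESeq2 1.42.0, limma 3.58.1 voom with quality weights, the 8 libraries alone, a minimum log2 fold change of 1, and leaving out libraries.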

Additional observations from a re-analysis of the deposited data

Results flagged for a closer look

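Among the named genes, 292 groups of 4 libraries were checked for a library that stood apart, by Dixon's criterion on the gap to its nearest neighbour. It was met 18 times, and chance meets it in about 1 of 20 groups, so these are values to look at and not signs of a pattern.

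Library 9 at 29 °C was the lowest for Prdx1 (139 CPM, the others 219 to 225), Oas3 (14.5 CPM, the others 31.2 to 34.5) and Irf7 (26.1 CPM, the others 97.1 to 103). The same library was the highest for G6pdx (104.1 CPM, the others 30.8 to 41.3) and Hist1h2ak (11.3 CPM, the others 8.0 to 8.02). Library 11 was the highest at 29 °C for Nudt7 (34.8 CPM, the others 23 to 23.6), Hes6 (18.4 CPM, the others 14.8 to 15.2) and Slc28a2, a nucleoside transporter (34.7 CPM, the others 6.44 to 10.3). Library 12 was the highest for Sult2a8 (41.2 CPM, the others 10.7 to 13.8). Library 10 was alone in holding any Mup-ps13 (0.0569 CPM, the others 0).

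At 6 °C, library 1 was the lowest for Tkfc (228 CPM, the others 328 to 336), Sesn3 (61.8 CPM, the others 85.6 to 89.4) and Mrps27 (15.1 CPM, the others 30.5 to 33.0), and the highest for Bmf (33.1 CPM, the others 11.2 to 13.9). Library 4 was the lowest for Dio1 (61.8 CPM, the others 118 to 126) and the highest for Hilpda (2.84 CPM, the others 0.477 to 0.798). Library 2 was the highest for Oas1a (3.99 CPM, the others 2.74 to 2.93) and library 3 for Mup16 (6.51 CPM, the others 0.576 to 1.33).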

How the results depend on the processing

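The 379 calls without the term became 1205 with DESeq2, 1110 with limma voom and quality weights, 1504 without the libraries holding H2-Ea-ps, 1884 with the term and 196 at a log2 fold change of at least 1; leaving out 1 library at a time gave 41 to 439. The 1884 calls with the term became 727 at that minimum, and 1012 to 1957 with 1 library left out. The test of different temperature changes gave 42 calls with DESeq2 against 0. Among genes called at a log2 fold change of at least 1, the share with the same sign in libraries 9 and 1 was 90.2%. The log2 difference turned its sign in 4 uncalled genes: with 1 library left out at a time, Cirbp ranged from -0.015 (without library 12) to 0.29, Nr1d1 from -0.36 to 0.12 (without library 3), Per2 from -0.79 to 0.40 (without library 1), and Arntl from -0.33 (without library 1) to 0.52, with library 3 (-0.19) and library 10 (-0.06) also giving negative values. Without the H2-Ea-ps libraries, Per2 gave 0.11 and Arntl -0.15. The causes of these changes were not tested. Some of these settings use fewer libraries or a stricter minimum. Of 140 called genes followed through the alternatives, 55 kept their call in every one, 85 lost it without some single library and 33 under another setting, all with an unchanged sign. The 55 are not a rate of stability. They include the 32 genes of the stable set, which were chosen for passing with any 1 compared library left out. The rest of the 55 were followed only in the fit with the term. Other scalings moved the median gene by at most 0.01 on the log2 scale, and the other scalings and low-count filters kept both counts within 1.5 times. No paired analysis was possible because library numbers run from 1 to 12 and are not shared between temperatures. Depth limits the reading of levels under 0.158 to 0.394 CPM, the value of 3 counts, for counting error only.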

Other observations

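Gene families taken by the stem of their symbol, and chosen after their counts were seen, held further calls with the term, against 6.32% higher and 6.23% lower over all genes. Of 72 tested cytochrome P450 genes (Cyp), 18 were lower and 1 higher, with a median log2 fold change of -0.42 without the term. Of 14 Ndufa genes, accessory subunits of respiratory complex I, 6 were lower and none higher (median -0.45), and of 21 Cox genes, of cytochrome oxidase and its assembly, 4 were lower and none higher (median -0.37). Aldo-keto reductases (Akr) had 5 lower of 14 and none higher (median -0.36). Interleukins and their receptors (Il) had 10 higher of 40 and none lower (median 0.47), kinesins (Kif) 9 higher and 3 lower of 33, and Kruppel-like factors (Klf) 5 higher and 3 lower of 14. These counts carry no test.

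The lowest p-values for a temperature change that differed between libraries with and without H2-Ea-ps belonged to Pnkd, Tjp3, Slc30a10, Tmie and Dusp1. None passed in edgeR, the adjusted p being 0.104 in each.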
